A study of Rattus norvegicus with 12 samples.

Results

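Wild-type KAT6A was compared with the LacZ control virus in primary neonatal rat ventricular cardiomyocytes, the contractile cells of the newborn heart kept in culture. The 6 libraries compared are 3 from cells that received an adenovirus carrying LacZ, a bacterial gene used as control cargo, and 3 from cells that received an adenovirus carrying human wild-type KAT6A (WT). They are 6 of 12 libraries in the study, in which 3 further libraries carry the acetylation-resistant mutant K815R and 3 are labelled with the acetylation-mimetic mutant K815Q. Every group had received an adenovirus for 2 days, so the comparison holds no cells without virus, and the virus drives the human protein on top of the cells' own Kat6a. All 32883 genes of the count table were considered and 14063 had enough reads to be tested. No label says whether the 3 libraries of a group came from separate heart cell preparations, so p-values measure only the spread between these libraries, which may be technical.

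KAT6A, also called MOZ, is a lysine acetyltransferase that works on histone H3 in a complex with BRPF1, ING5 and MEAF6. Type I interferons act through a receptor, JAK kinases and STAT and IRF factors, which bind interferon-stimulated response elements in front of antiviral genes. Adenoviral vectors are known to raise such genes in many cell types. The series concerns KAT6A acetylation in cardiomyocyte growth and in mitochondrial metabolism through AMPK, the kinase that senses low cellular energy.

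Gene counts per library lay between 19102048 and 23870785 in the 6 libraries, and 18067 to 18273 genes had at least 1 read. Levels are counts scaled to library size (CPM), on which scale 3 counts equal 0.123 to 0.155 CPM. Markers of cardiomyocytes dominated: the 11 tested markers summed to 44332 to 46406 CPM in LacZ and to 46844 to 48051 CPM in WT. Tnnt2 stood at 8597, 8304 and 7884 CPM in LacZ and at 8802, 8525 and 8242 CPM in WT. Fibroblast markers were also abundant, with 14 markers at 12531 to 13434 CPM in LacZ and 11710 to 12746 CPM in WT, so the cultures held non-muscle cells. In bulk RNA, fewer cells of a type and less RNA per cell cannot be told apart. LacZ replicate 2 stood apart in the interferon genes. It was the highest LacZ library for 103 of the 109 interferon genes that fell, or 94.5%, against 32.7% of all genes tested.

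The targeted gene was higher in every WT library. Kat6a stood at 45.5, 45.2 and 53.6 CPM in LacZ replicates 1 to 3 and at 90.8, 82.0 and 106 CPM in WT replicates 1 to 3. The groups did not overlap, the rise was 1.93-fold (log2 fold change 0.95, SE 0.11), and the edgeR adjusted p was 3.3e-04. Reads of the human transgene cannot be told apart from reads of rat Kat6a in these counts. Prkaa2, which encodes the alpha 2 catalytic subunit of AMPK, rose from 55.4, 54.8 and 72.7 CPM to 488, 435 and 633 CPM. That is 8.51-fold (log2 fold change 3.09, SE 0.17, edgeR adjusted p 2.5e-05), and it was the only called higher gene at or above 5 CPM that moved at least 2-fold. Its paralog Prkaa1 stood at 44.0, 45.4 and 49.1 CPM in LacZ and at 45.6, 41.5 and 36.4 CPM in WT, with overlapping groups and an edgeR adjusted p of 0.35. Of the 14 tested members of the KAT6A complex list, Kat6a was the 1 called, and the median of the list was 0.018 on the log2 scale. From here on, a bare signed value beside a gene is its log2 fold change of WT over LacZ.

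WT and LacZ differed in 751 of 14063 genes, or 5.34% (edgeR quasi-likelihood test, Benjamini-Hochberg adjusted p under 0.05). WT was higher in 274 genes, or 1.95%, and lower in 477, or 3.39%. The values of the 3 WT and 3 LacZ libraries did not overlap for 24.6% of all genes tested. The genes were then split by 3 lists into an interferon group and a remainder. The interferon group had 174 tested genes, of which 109 fell and 2 rose (63.8% called), with a median log2 fold change of -0.58 over all 174 and of 0.0087 over all genes tested. The remainder had 13889 tested genes, of which 368 fell and 272 rose (4.61% called). This balance moved with the method: upper-quartile scaling gave 333 lower and 315 higher genes, RLE scaling 396 and 254, and DESeq2 359 and 204.

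The sizes of change differed between the groups of genes. Among the 109 interferon genes that fell, the median log2 fold change was -1.10, and 56 fell at least 2-fold. Among the remaining called genes, the median was -0.40 for the lower and 0.32 for the higher genes, and 495 of 640 moved by less than 1.5-fold. At least 2-fold changes were found in 46 remaining genes, 32 lower and 14 higher, and 11 of these 46 (10 lower and 1 higher) had a mean of at least 5 CPM. When each of the 6 libraries was left out in turn, 82 of 111 interferon calls and 194 of 640 remaining calls were kept in all 6 fits. Without LacZ replicate 2 the remainder had 284 called genes, 109 higher and 175 lower, and without WT replicate 2 it had 291, 111 higher and 180 lower. The count of higher genes also fell to 162 without LacZ replicate 3 and to 178 without WT replicate 3, and the count of lower genes to 231 without WT replicate 1. LacZ replicate 2 was the highest LacZ library for 59.5% of the lower and the lowest for 48.5% of the higher remaining genes, against 32.7% and 31.4% of all genes tested.

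**Figure D1:**
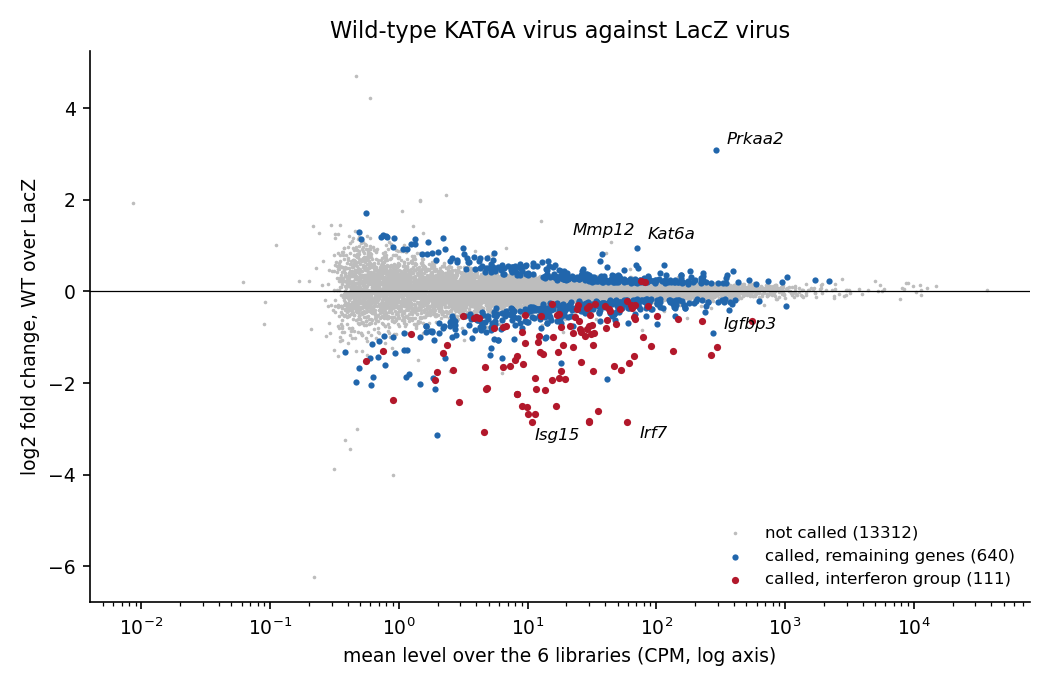
Log2 fold change of WT over LacZ (vertical axis) against the mean level over the 6 libraries in CPM (horizontal log axis) for the 14063 genes tested, each point a gene. The 109 lower interferon genes (red) reach further down than most of the remaining called genes (blue), and Prkaa2 stands alone at the top among called genes of high level.

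The interferon fall covered effectors, induced factors and antigen presentation. Among 122 tested interferon-stimulated effectors, 82 fell and 1 rose, and the median log2 fold change was -0.59. Among 24 tested genes of MHC class I and antigen processing, 19 were called, each of them lower, with a median of -0.79, and all 24 values were negative. Fitted on the 6 libraries alone, 10 of these MHC and processing genes were called. Of 28 tested sensors, IRF and STAT factors, 8 fell and 1 rose, with a median of -0.10.

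The 6 named interferon genes fell to between 0.138 and 0.157 of their LacZ level, and each kept its call whichever library was left out. Usp18, the protease that removes ISG15 from proteins and dampens receptor signalling, stood at 43.6, 71.0 and 44.8 CPM in LacZ and at 11.2, 5.37 and 5.37 CPM in WT (log2 fold change -2.86, SE 0.39, edgeR adjusted p 0.0047). Irf7, the factor that amplifies the interferon response, stood at 75.0, 153 and 81.9 CPM in LacZ and at 22.7, 9.30 and 11.1 CPM in WT (-2.84, SE 0.40, edgeR adjusted p 0.0050). Isg15, a ubiquitin-like modifier, stood at 40.4, 80.2 and 37.3 CPM in LacZ and at 11.0, 4.44 and 6.80 CPM in WT (-2.83, SE 0.39, edgeR adjusted p 0.0047). In all 3 genes LacZ replicate 2 was the highest library and WT replicate 1 the highest of the WT libraries, and the groups did not overlap. Ifit3 and Ifit1, which bind foreign RNA or assist in that, had log2 fold changes of -2.85 (SE 0.44) and -2.68 (SE 0.42). RT1-T24-3, a rat MHC class I gene with close copies whose reads may be split, had a log2 fold change of -2.67 (SE 0.39).

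Other members are named after their values were seen, to show which steps of the pathway were measured as lower. The cytosolic RNA sensors Ddx58 (RIG-I) and Ifih1 (MDA5) had log2 fold changes of -1.93 and -1.37. Stat2 and Irf9, partners in the complex that binds the response element, had -1.20 and -0.72 (edgeR adjusted p 2.6e-04 and 9.5e-06). The peptide transporter Tap1 had -0.88 and the MHC light chain B2m -0.63. By contrast, the receptor subunit Ifnar1 stood at -0.03, Ifnar2 at -0.20, the kinases Jak1 at -0.15 and Tyk2 at 0.04, the adaptor Mavs at 0.09 and the kinase Tbk1 at -0.03, none of them called. The 2 genes that rose were Irf3 (0.23, edgeR adjusted p 0.027) and Ifi30 (0.22, edgeR adjusted p 0.016), and their calls were kept in 2 and 3 of the 6 fits.

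Promoters were read to see whether the split by lists matches a property the split did not use. In RefSeq promoters of assembly GRCr8, from 250 bases before to 50 after each start, a core of the interferon-stimulated response element (GAAA, any 2 bases, GAAA, either strand) was searched. It was found in 3.06% of 10071 tested genes with a promoter entry. It was found in 45 of 90 interferon genes that fell, or 50%, and in 10 of 52 that did not fall, or 19.2%. Among the remaining genes it was found in 10 of 267 that fell, or 3.75%, and in 4 of 196 that rose, or 2.04%. The shorter core without the last base gave 7.53% of all genes, 52.2% of the interferon genes that fell and 5.62% of the remaining genes that fell. A match is a description of letters and not a measured site.

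The 80 bases before the start of 3 interferon genes show where the core lies, with its bases in capitals. Irf7 (chr1:205800024-205800103, minus strand) and Ifit3 (chr1:241527246-241527325, plus strand) hold it on the reverse strand, and Oas1a (chr12:41330386-41330465, plus strand) holds 2 overlapping copies. Oas1a, an enzyme that makes the activator of RNase L, was chosen after its values were seen. Its log2 fold change was -3.06 (SE 0.35) at 6.41, 11.1 and 6.88 CPM in LacZ and 1.62, 0.672 and 0.618 CPM in WT.
Irf7: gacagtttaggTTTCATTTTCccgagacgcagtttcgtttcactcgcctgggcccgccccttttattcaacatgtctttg
Ifit3: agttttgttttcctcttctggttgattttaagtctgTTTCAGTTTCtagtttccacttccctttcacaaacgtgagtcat
Oas1a: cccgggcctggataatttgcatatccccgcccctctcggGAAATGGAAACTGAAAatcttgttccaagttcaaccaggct

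The share of remaining lower genes with the core, 3.75%, was close to the 3.06% over all genes, so the core does not mark these genes out. The 10 are Fcgr3a, Serpinb2, Srgn, Sema6a, Plekha4, Gas2l3, Serpinb9, Cnksr3, Glul and Sae1. Fcgr3a, a receptor for the constant part of antibodies on macrophages, stood at 4.48, 5.62 and 4.79 CPM in LacZ and at 2.84, 1.86 and 2.66 CPM in WT (-1.01, SE 0.15, edgeR adjusted p 2.6e-04). It and Serpinb9, an inhibitor of granzyme B (-0.31), kept their calls in all 6 fits, and the other 8 did not. Stat4, a STAT factor named after its values were seen, stood at 113, 140 and 122 CPM in LacZ. In WT it stood at 85.3, 69.8 and 74.7 CPM (-0.70, SE 0.08, edgeR adjusted p 1.1e-04). It was counted in the remainder because the list of IRF and STAT factors does not hold it. LacZ replicate 2 was its highest library, as in most interferon genes that fell. AABR07013651.1 and AABR07058464.1, 2 loci without a gene symbol also named after their values were seen, had log2 fold changes of -1.90 and -1.57. Across the remainder, 40 called genes, 15 higher and 25 lower, had no symbol of their own.

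**Figure D2:**
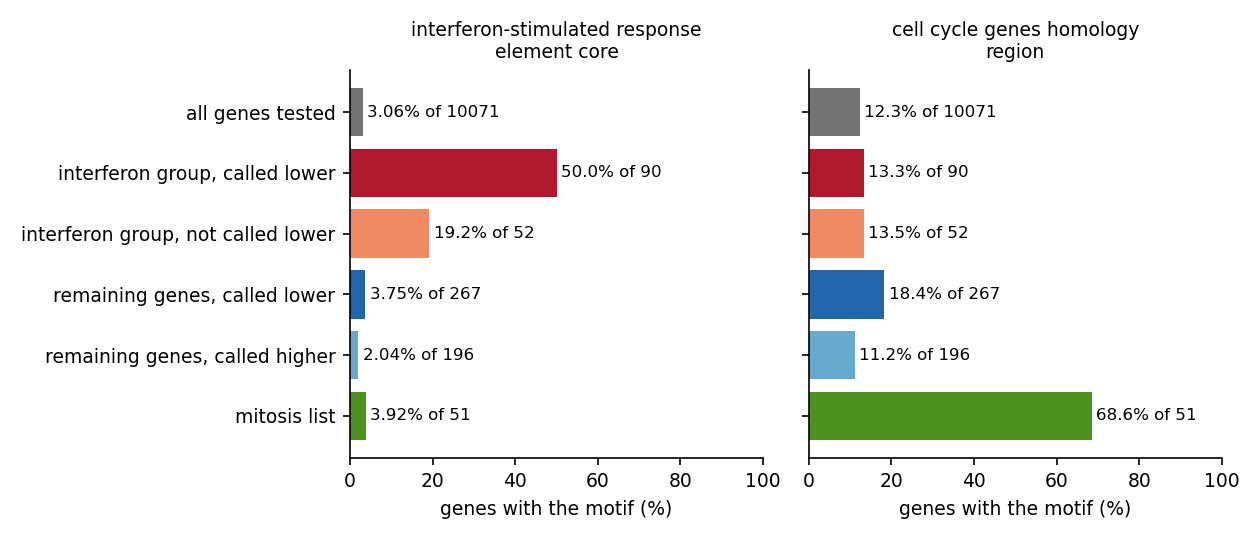
Percent of genes whose RefSeq promoter holds the interferon-stimulated response element core (left) or the cell cycle genes homology region (right), with the number of genes that have a promoter entry. The first motif is at 50% in the interferon genes that fell and at 2.04% to 3.92% in the other sets shown except the interferon genes that did not fall; the second is at 68.6% in the mitosis list.

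Outside the interferon group, and among called genes of at least 5 CPM with a symbol and no overlap, the largest rises after Prkaa2 and Kat6a were between 1.49- and 1.78-fold. Of the 14 called genes that rose at least 2-fold, all but Prkaa2 had a mean under 5 CPM. Rbfox1, a splicing regulator of heart and muscle, stood at 4.15, 3.16 and 4.43 CPM in LacZ and at 7.81, 6.51 and 6.65 CPM in WT (log2 fold change 0.83, SE 0.18). Its edgeR adjusted p was 0.0072, and 0.0501 without LacZ replicate 2. Mmp12, the macrophage elastase, stood at 31.9, 20.9 and 28.2 CPM in LacZ and at 49.4, 51.9 and 42.5 CPM in WT (0.83, SE 0.13, edgeR adjusted p 0.0038). Nqo1, a quinone reductase and a classical target of NRF2, stood at 29.5, 26.8 and 28.6 CPM in LacZ and at 44.2, 41.0 and 49.1 CPM in WT (0.66, SE 0.08, edgeR adjusted p 1.3e-05). Cilp, a matrix protein of cartilage and heart, rose by 0.66 (SE 0.09) on the log2 scale, from 10.9, 10.9 and 11.5 CPM to 17.1, 16.3 and 19.2 CPM. In these 4 genes no WT library overlapped a LacZ library.

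The other higher genes of this size had mixed roles. Ptpn7, a phosphatase of blood cells, rose by 0.69 (SE 0.12), Arl4d, a small GTPase, by 0.61 (SE 0.13), and C7, a late complement component, by 0.58 (SE 0.10). Ccdc62 and Klhl33 rose by 0.58 each. Plau, the urokinase protease, stood at 11.6, 8.33 and 10.5 CPM in LacZ and at 15.0, 19.3 and 13.3 CPM in WT (0.63, SE 0.14, edgeR adjusted p 0.014). Its edgeR adjusted p was 0.0563 without LacZ replicate 2, 0.0520 without LacZ replicate 3 and 0.0513 without WT replicate 2. Except for Plau and Rbfox1, the 12 genes kept their calls in all 6 fits.

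Under the same limits, the 12 largest falls of the remainder had log2 fold changes between -1.45 and -0.80. Larger falls were found at lower levels, such as Slc6a4, the serotonin transporter, named after its values were seen (-2.04, SE 0.41, edgeR adjusted p 0.0033, all 6 libraries under 1.5 CPM). Igfbp3, which binds insulin-like growth factors, was the most abundant of the 12, at 350, 381 and 339 CPM in LacZ and at 185, 205 and 183 CPM in WT (log2 fold change -0.90, SE 0.17, edgeR adjusted p 0.019). The groups lay far apart, yet the edgeR adjusted p rose to between 0.0615 and 0.0776 without LacZ replicate 2 or without any 1 of the WT replicates. Ptx3, a pentraxin of innate immunity, stood at 15.9, 23.7 and 15.2 CPM in LacZ and at 9.28, 9.04 and 8.55 CPM in WT (-1.02, SE 0.13, edgeR adjusted p 2.1e-04). Bmp3, a BMP family member, stood at 8.13, 7.80 and 6.15 CPM in LacZ and at 3.70, 3.93 and 3.09 CPM in WT (-1.04, SE 0.14, edgeR adjusted p 9.5e-05). Chi3l1, a chitinase-like secreted protein, had -0.82 (SE 0.12) and Bst1, an enzyme of NAD metabolism on the cell surface, -0.84 (SE 0.15).

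Abca4, a retinoid transporter, had -1.06 (SE 0.17), Tmem106a, a membrane protein of macrophages, -0.998 (SE 0.17), and Myl1, the fast skeletal myosin light chain, -0.80 (SE 0.11). Pla2g2a, a secreted phospholipase, stood at 6.75, 13.9 and 6.93 CPM in LacZ and at 3.04, 3.82 and 3.18 CPM in WT (-1.45, SE 0.30, edgeR adjusted p 0.022). Its edgeR adjusted p was 0.0854, 0.0759 and 0.0882 without WT replicate 1, 2 and 3. The remaining entries were globins: Hbb stood at 9.01, 7.84 and 5.45 CPM in LacZ and at 2.48, 3.10 and 2.90 CPM in WT (-1.39, SE 0.22, edgeR adjusted p 0.0016). Hba-a2 appears in the table under 2 identifiers with log2 fold changes of -1.23 and -1.04, and reads may be split between these near-identical copies. Leaving out WT replicate 2 ended both Hba-a2 calls (edgeR adjusted p 0.0696 and 0.0773), as did WT replicate 1 for one of them (0.0532) and LacZ replicate 2 for the other (0.0657).

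**Figure D3:**
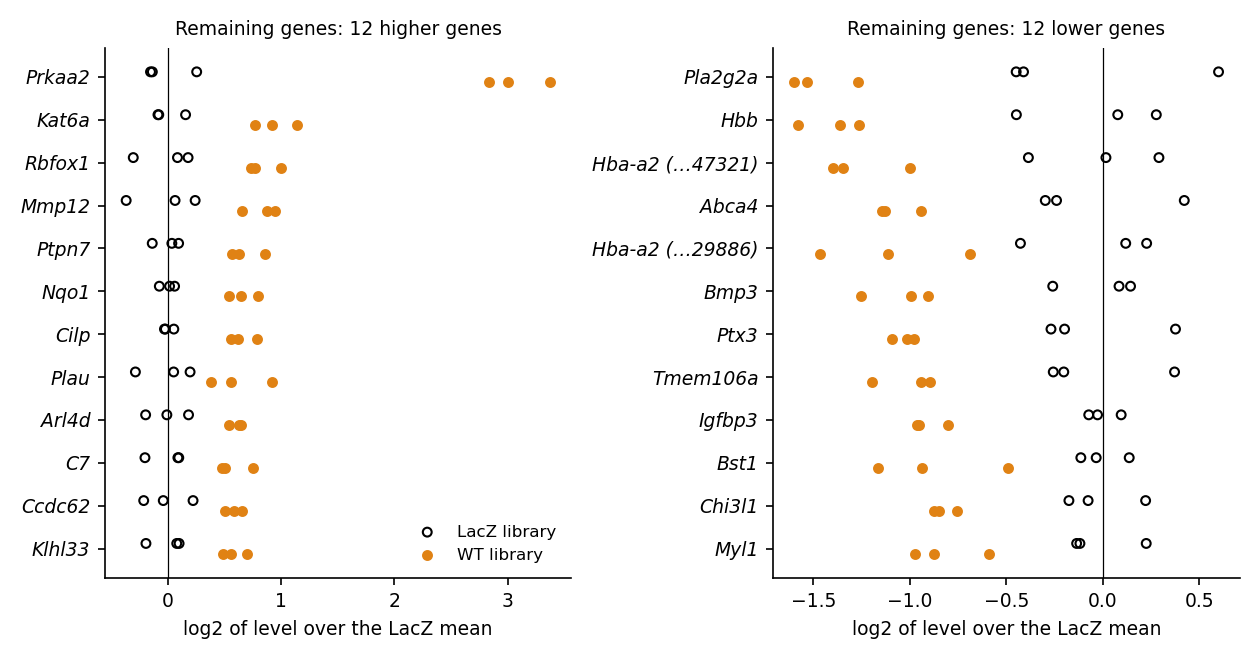
Level of the 12 higher (left) and 12 lower (right) named remaining genes in each library, as the log2 of the CPM over the LacZ mean; open circles are LacZ libraries and filled circles WT libraries. By the naming rule no WT library overlaps a LacZ library, and Prkaa2 lies far beyond the others at a log2 fold change of 3.09.

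Of the 640 remaining called genes, 197 (77 higher, 120 lower) belonged to at least 1 of 56 function and family lists or 8 marker lists, and 443 belonged to none. Genes in a list were called in 7.34% of cases and genes in none in 3.95%. The lists were chosen with earlier results of these data known, so this difference and the list shares below are a description only. Each list is described by its count of called members, read beside the shares of 1.95% higher and 3.39% lower over all genes.

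Of the function lists, the mitosis list held the most lower genes outside the interferon group. Of 59 tested genes of mitosis and G2/M, 21 were called, each of them lower, or 35.6%, with a median log2 fold change of -0.30, and 56 of the 59 values were negative. Summed over the list, the level was 1049, 1193 and 1123 CPM in LacZ and 970, 843 and 937 CPM in WT, with no overlap. The count rested on single libraries: 6 genes were called without LacZ replicate 2, 10 without WT replicate 1 and 4 without WT replicate 2. LacZ replicate 2 held the highest and WT replicate 2 the lowest summed level. The S phase list behaved differently: 2 of 51 genes fell, its median was -0.022, and 26 values were negative and 25 positive. The 2 were Ccne1 and Mcm3, chosen after their values were seen (-0.37 and -0.27), and DESeq2 called 4, with 8 at an unadjusted edgeR p under 0.05. The S phase count was 4 without LacZ replicate 1 and 0 without LacZ replicate 2 or 3 or WT replicate 1 or 2. The difference between the 2 lists was not tested.

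Ckap2l, Prc1, Ckap2 and Dlgap5 kept their calls in all 6 fits. Prc1, which bundles the microtubules of the central spindle, stood at 52.0, 63.5 and 58.8 CPM in LacZ and at 37.0, 36.0 and 40.8 CPM in WT (log2 fold change -0.61, SE 0.11, edgeR adjusted p 0.0065). Ckap2l and Ckap2, both spindle proteins, had -0.68 (SE 0.14) and -0.56 (SE 0.11). Ect2, which starts cytokinesis, had -0.64 (SE 0.16, edgeR adjusted p 0.043), and its edgeR adjusted p lay between 0.06 and 0.146 when any library other than LacZ replicate 1 was left out. Cdkn3, a phosphatase of cell cycle kinases, Arhgap19, a regulator of cytokinesis, and Spag5, a spindle protein, lie outside the list and were named after their values were seen. Cdkn3 stood at 16.6, 18 and 17.3 CPM in LacZ and at 10.3, 9.15 and 12.7 CPM in WT (-0.69, SE 0.13), Arhgap19 had -0.69 (SE 0.11) and the higher of 2 Spag5 entries -0.56 (SE 0.11).

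**Figure D4:**
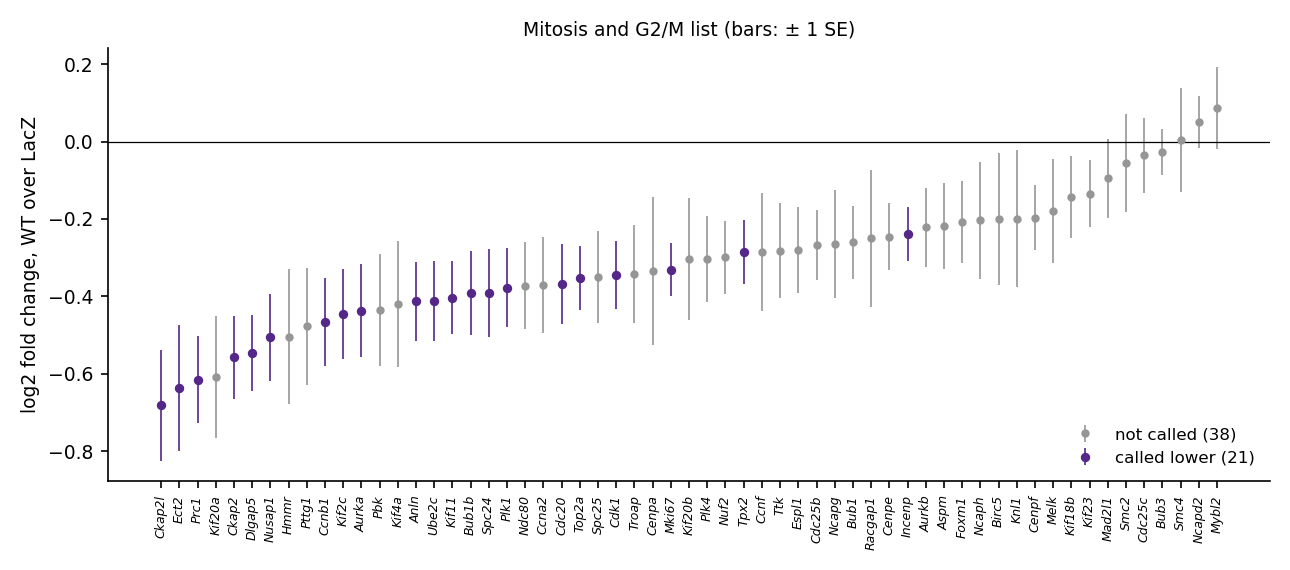
Log2 fold change of WT over LacZ (points, bars ± 1 SE) for the 59 tested genes of the mitosis and G2/M list, in order of size. Points of 56 genes lie below 0, and the 21 called genes (purple) run from Ckap2l at -0.68 to Incenp at -0.24.

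Promoters of the mitosis list were searched for the cell cycle genes homology region (TTTGAA, either strand), the element bound by the DREAM and B-MYB complexes, a choice made after the list's values were seen. It was found in 12.3% of all genes tested, in 35 of 51 genes of the list (68.6%) and in 12 of 18 called lower (66.7%). The called genes thus held it no more often than the list as a whole. The element describes the list and does not mark out the genes that were called. The remaining genes as a whole held it in 18.4% of those that fell and 11.2% of those that rose. For 3 list members the 80 bases before the start are shown, with the element in capitals: Prc1 (chr1:143659401-143659480, plus strand), Cdc20 (chr5:137255800-137255879, minus strand) and Top2a (chr10:84473094-84473173, minus strand), the last on the reverse strand. Cdc20 activates the anaphase complex and had a log2 fold change of -0.37. Top2a untangles chromosomes and had -0.35.
Prc1: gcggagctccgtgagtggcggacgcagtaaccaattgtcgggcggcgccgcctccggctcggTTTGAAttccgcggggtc
Cdc20: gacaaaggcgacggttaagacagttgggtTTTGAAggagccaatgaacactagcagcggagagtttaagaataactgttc
Top2a: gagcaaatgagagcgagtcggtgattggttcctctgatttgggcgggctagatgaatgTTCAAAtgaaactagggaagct

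Some targets of p53 fell as well: 8 of 38 were called, each of them lower, with a median of -0.10 and 28 negative values. Cdkn1a, the p21 inhibitor of cell cycle kinases, stood at 184, 203 and 177 CPM in LacZ and at 144, 135 and 159 CPM in WT (-0.36, SE 0.07, edgeR adjusted p 0.0024). Ephx1, an epoxide hydrolase, had -0.41 (SE 0.08), and both kept their calls in all 6 fits. Zmat3, an RNA-binding protein, and Dram1, an autophagy regulator, had -0.48 and -0.36, and their calls were lost in 4 and 5 of the 6 fits. Without WT replicate 2 the list had 3 called genes, and without LacZ replicate 3 or WT replicate 1 it had 5.

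Most inflammatory and complement genes were not called, and of those called more were lower than higher. Of 49 tested NF-kB targets, cytokines and chemokines, 8 fell and 1 rose, with a median of -0.11, and the count was 5 without LacZ replicate 1, 6 without WT replicate 2 or 3 and 4 without WT replicate 1. Osmr, the receptor of oncostatin M, stood at 55.5, 52.6 and 57.3 CPM in LacZ and at 38.8, 38.0 and 40.4 CPM in WT (-0.50, SE 0.07, edgeR adjusted p 6.6e-05). Csf1, the growth factor of macrophages, had -0.38 (SE 0.05) and Cxcl12, a chemokine that attracts CXCR4-bearing cells, -0.43 (SE 0.08). With Ptx3 above, these are the 4 of the list kept in all 6 fits.

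Of 31 complement and coagulation genes 7 fell and 2 rose, with a median of -0.057 and 12 positive values. C1s, a protease of the first complement component, stood at 160, 191 and 149 CPM in LacZ and at 109, 125 and 108 CPM in WT (-0.55, SE 0.09, edgeR adjusted p 0.0017). C3, the central complement protein, had -0.61 (SE 0.14, edgeR adjusted p 0.026), with 0.0967 and 0.121 without WT replicate 1 and 2. C1s and C3 are interferon-responsive in some cell types, and they were counted in the remainder because the interferon lists do not hold them. Other genes of the remainder may be interferon-responsive too, which was not tested. The 2 that rose were C7 and Plau, described above.

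Genes of secreted growth signals that were called were lower. In the TGF-beta and BMP list 4 of 45 were called, in the growth factor list 3 of 49 and in the hypoxia list 4 of 29, each of them lower. The hypoxia list had a median of -0.17, with 26 of 29 values negative, and the medians of the other lists were -0.073 and -0.050. Single libraries moved these counts: the hypoxia count was 2 without LacZ replicate 2, WT replicate 1 or WT replicate 2, the TGF-beta count was 2 without WT replicate 2, and the growth factor count was 1 without LacZ replicate 2 or WT replicate 1.

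Follistatin (Fst), which traps activins, stood at 12.4, 12.9 and 11.4 CPM in LacZ and at 7.40, 8.84 and 6.80 CPM in WT (-0.67, SE 0.10, edgeR adjusted p 3.1e-04). Adrenomedullin (Adm), a vasodilator peptide induced by hypoxia, stood at 44.4, 48.8 and 40.6 CPM in LacZ and at 26.8, 27.0 and 31.7 CPM in WT (-0.64, SE 0.09, edgeR adjusted p 2.4e-04). Vegfc, the growth factor of lymphatic vessels, had -0.46 (SE 0.09, edgeR adjusted p 0.0040). These 3 kept their calls in all 6 fits. P4ha2 and P4ha1, subunits of the enzyme that hydroxylates collagen proline, had -0.34 and -0.20, and were lost in 4 and 3 of the 6 fits.

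Matrix genes moved in both directions. Among 91 collagens and other matrix proteins 5 rose and 5 fell. Among 59 genes in the list of matrix proteases, inhibitors and related proteins 5 rose and 7 fell. Without LacZ replicate 2 or WT replicate 2 the matrix list had 6 called genes. The protease list had 6 without LacZ replicate 2 and 7 without LacZ replicate 3. Postn, a matrix protein of activated fibroblasts, stood at 328, 286 and 326 CPM in LacZ and at 388, 437 and 373 CPM in WT (0.35, SE 0.06, edgeR adjusted p 0.0010). Lox, which cross-links collagen, stood at 152, 165 and 158 CPM in LacZ and at 129, 113 and 125 CPM in WT (-0.37, SE 0.07, edgeR adjusted p 0.0031), and its relative Loxl3 had -0.55 (SE 0.09). Col1a1 stood at 8614, 8147 and 8008 CPM in LacZ and at 7264, 7659 and 7213 CPM in WT, a difference of -0.16 that was not called (edgeR adjusted p 0.091).

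The protease list also holds Adamtsl2, a binding partner of the TGF-beta matrix store that is not itself a protease. Adamtsl2 rose from 36.0, 30.3 and 34.9 CPM to 43.8, 50.8 and 51.7 CPM (0.53, SE 0.07, edgeR adjusted p 5.8e-05). Adamts5, an aggrecan protease, fell from 21.5, 22.1 and 23.5 CPM to 16.7, 15.5 and 14.8 CPM (-0.51, SE 0.08, edgeR adjusted p 5.2e-04). Postn, Lox, Loxl3, Adamtsl2 and Adamts5 kept their calls in all 6 fits. In the list of 146 integrins, adhesion and guidance genes, 3 rose and 3 fell, close to the share over all genes. The count was 2 without LacZ replicate 3 and 3 without LacZ replicate 2 or any WT replicate. Plxnb1, a semaphorin receptor, had 0.36 (SE 0.07) and was kept in all 6 fits.

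Of 53 sarcomere and Z-disc genes 6 rose and 1 fell, with a median of 0.078 and 38 positive values. Cardiomyocyte markers moved beside them: their median was also 0.078, 10 of 11 values were positive, and their summed level, given above, did not overlap between the groups. Their part in the sarcomere values was not tested, and Mybpc3 belongs to both lists. Without LacZ replicate 1, LacZ replicate 2 or WT replicate 2 the count of called genes was 4. Myh7b, a slow myosin heavy chain whose gene also carries a microRNA, stood at 94.1, 95.9 and 88.4 CPM in LacZ and at 133, 142 and 138 CPM in WT (0.57, SE 0.05, edgeR adjusted p 5.8e-07). Mybpc3, the cardiac myosin-binding protein, stood at 1546, 1576 and 1555 CPM in LacZ and at 1779, 1869 and 1871 CPM in WT (0.24, SE 0.05, edgeR adjusted p 0.0057). Mybpc2, its fast skeletal form, was the gene that fell, from 53.8, 67.2 and 55.2 CPM to 45.3, 37.7 and 45.7 CPM (-0.45, SE 0.08, edgeR adjusted p 0.0016). These 3 kept their calls in all 6 fits. The main heart myosins were not called: Myh6 had 0.08 (edgeR adjusted p 0.49) and Myh7 -0.05 (edgeR adjusted p 0.81).

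Of 29 hypertrophy and fetal genes 3 rose and 3 fell. Those that rose were Postn, described above, and Lgals3 and Spp1, secreted proteins also made by fibroblasts and macrophages, at 0.26 and 0.22, whose calls were lost in 3 and 5 of the 6 fits. Nppb, the B-type natriuretic peptide, stood at 1149, 1147 and 1068 CPM in LacZ and at 890, 937 and 880 CPM in WT (-0.31, SE 0.07, edgeR adjusted p 0.0050). Nppa stood at 11331, 12597 and 10779 CPM in LacZ and at 11629, 9671 and 11829 CPM in WT, with overlapping groups (-0.07, edgeR adjusted p 0.68). Rcan1, a calcineurin target, had -0.28 (SE 0.06, edgeR adjusted p 0.0099, and 0.0581 without LacZ replicate 1). The count of called genes in the list was 3 without LacZ replicate 1, LacZ replicate 3 or WT replicate 2.

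Of 47 calcium handling genes 2 rose and 1 fell. Cacna1g, a T-type calcium channel, stood at 163, 161 and 175 CPM in LacZ and at 197, 215 and 208 CPM in WT (0.31, SE 0.06, edgeR adjusted p 0.0021), kept in all 6 fits. Pln, the inhibitor of the calcium pump SERCA, had 0.22 (SE 0.05, edgeR adjusted p 0.012), with 0.0968 without LacZ replicate 2 and 0.0596 without WT replicate 1. Of 46 potassium, sodium and chloride channels and pumps 2 rose and 3 fell. Abcc8, the sulfonylurea receptor subunit of the ATP-sensitive potassium channel, had 0.27 (SE 0.06, edgeR adjusted p 0.0057) and was the 1 channel gene kept in all 6 fits. Without LacZ replicate 2 or WT replicate 1 the channel list had 1 called gene, without LacZ replicate 1 or WT replicate 2 it had 2, and without WT replicate 3 it had 3.

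Metabolic genes held small groups with opposite directions. Of 32 ATF4 targets, which serve amino acid supply, 6 rose and 1 fell, with a median of 0.10. Slc7a11, the cystine transporter, stood at 9.30, 8.07 and 9.18 CPM in LacZ and at 14.2, 13 and 11.7 CPM in WT (0.55, SE 0.11, edgeR adjusted p 0.0039). Cebpb was the gene that fell, from 92.5, 100 and 86.1 CPM to 64.8, 74.3 and 77.1 CPM (-0.37, SE 0.06, edgeR adjusted p 9.6e-04). Chac1, a glutathione-degrading enzyme, had 0.54 and Slc7a3, a cationic amino acid transporter, 0.38, and they were lost in 4 and 2 of the 6 fits. The count was 3 without LacZ replicate 2 and 4 without WT replicate 2.

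Of 33 NRF2 targets 2 rose (Nqo1 and Slc7a11) and 4 fell, so the list did not move one way, and its median was -0.018. Me1, the cytosolic malic enzyme, stood at 150, 156 and 160 CPM in LacZ and at 128, 125 and 128 CPM in WT (-0.29, SE 0.05, edgeR adjusted p 5.5e-04). Gclc, the first enzyme of glutathione synthesis, had -0.29 (SE 0.06, edgeR adjusted p 0.0047, and 0.0508 without WT replicate 2). The NRF2 count was 3 without WT replicate 2. Of the AMPK list, 22 genes were tested: Prkaa2 rose, and the related kinases Mark1 (-0.39, SE 0.07) and Sik1 (-0.29, SE 0.08) fell, of which Sik1 was lost in 4 of the 6 fits.

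Few genes of mitochondrial respiration were called, while nearly all had positive values, with small medians. The largest value was 0.57 among nuclear OXPHOS subunits and 1.54 among mRNAs of mitochondrial DNA, neither of them called. Of 80 nuclear OXPHOS subunits 1 was called by edgeR, with a median of 0.090 and 77 positive values, and none of 13 mRNAs of mitochondrial DNA was called, with a median of 0.15 and 13 positive values. DESeq2 also called 1 subunit and 0 mRNAs of mitochondrial DNA, and 13 and 3 genes had an unadjusted edgeR p under 0.05. Without LacZ replicate 1 the OXPHOS list had 2 called genes, and without LacZ replicate 3 the mitochondrial DNA list had 1. Summed over the 13 mRNAs, the level was 109155, 99485 and 107616 CPM in LacZ and 128456, 103412 and 107333 CPM in WT, so the groups overlapped. The summed levels of the nuclear OXPHOS list (34882 to 37170 CPM in LacZ and 37828 to 39098 CPM in WT) and of the TCA cycle list (11791 to 12062 CPM and 12217 to 12342 CPM) did not overlap. Cardiomyocyte markers were also higher in sum, and their part in these values was not tested. The 1 subunit was Cox8b, the muscle form of a cytochrome oxidase subunit, chosen after its values were seen. It stood at 214, 187 and 188 CPM in LacZ and at 255, 275 and 254 CPM in WT (0.41, SE 0.07, edgeR adjusted p 8.5e-04). Ppargc1a, the coactivator of mitochondrial biogenesis, was not called (0.07, edgeR adjusted p 0.75). Of 43 genes of fatty acid uptake and oxidation 1 rose (2 were called without LacZ replicate 3, and 3 by DESeq2). Of 35 genes of the TCA cycle and 34 of cholesterol synthesis, 0 were called by edgeR and 0 by DESeq2, with 6 and 8 genes at an unadjusted edgeR p under 0.05. The cholesterol list had 1 call without LacZ replicate 1 or 2.

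Lipid synthesis and glycogen genes that were called were lower. Of 29 genes of fatty acid and lipid synthesis and storage 3 were called, each of them lower, and the count was 0 without LacZ replicate 2 or WT replicate 2 and 1 without LacZ replicate 3. Fads2, a fatty acid desaturase, had -0.25 (SE 0.06), with an edgeR adjusted p of 0.014, and 0.0663 and 0.112 without LacZ replicate 2 and WT replicate 2. Of 37 glucose and glycolysis genes 3 were called, each of them lower, with 1 call without LacZ replicate 2 or WT replicate 2. Gbe1, the branching enzyme of glycogen, stood at 61.8, 73.8 and 68.2 CPM in LacZ and at 57.7, 50.7 and 50.7 CPM in WT (-0.36, SE 0.07, edgeR adjusted p 0.0018), kept in all 6 fits. Pygl, a glycogen phosphorylase, had -0.28 (SE 0.06, edgeR adjusted p 0.0071), and 0.0581 and 0.0544 without LacZ replicate 2 and WT replicate 2.

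Lists of transport, RNA processing and chromatin genes had shares of called members below and above the 5.34% over all genes. They ran from 1.77% of zinc finger proteins to 12.9% of the list of steroid, retinoid and xenobiotic receptors and related genes. Of 247 solute carriers outside the interferon group 10 rose and 7 fell, with 8 calls without LacZ replicate 2 and 10 without WT replicate 3. Slc39a6, a zinc importer, had -0.45 (SE 0.06, edgeR adjusted p 9.5e-05, kept in all 6 fits), and Slc43a2, an amino acid transporter, 0.45 (SE 0.10, edgeR adjusted p 0.0082, and 0.061 without WT replicate 3). Of 46 splicing factors 5 were called, each of them higher, with 1 call without LacZ replicate 2, 2 without WT replicate 2 and 3 without LacZ replicate 1 or 3. Srsf5, a serine- and arginine-rich splicing factor, had 0.23 (SE 0.05, edgeR adjusted p 0.0056), kept in all 6 fits.

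Of 33 histone acetylation enzymes and readers 2 rose (Hdac10 and Mllt1) and 2 fell (Hdac1 and Yeats2), each by at most 0.36 on the log2 scale. That list had 0 calls without LacZ replicate 2 or 3, 1 without WT replicate 2 or 3 and 2 without LacZ replicate 1 or WT replicate 1; DESeq2 called 2, and 8 genes had an unadjusted edgeR p under 0.05. Of 226 zinc finger proteins 3 rose and 1 fell, with 24 at an unadjusted edgeR p under 0.05 and 1 called by DESeq2. There were 0 calls without WT replicate 2, 1 without LacZ replicate 2 or WT replicate 1 and 2 without LacZ replicate 3. Of 31 genes in the list of steroid, retinoid and xenobiotic receptors and related genes, 1 rose and 3 fell. Tsc22d3 rose and Cyp1b1, Dhrs3 and Cyp26b1 fell, and none of these is a receptor. Cyp1b1, a target of the aryl hydrocarbon receptor, stood at 96.8, 96.7 and 101 CPM in LacZ and at 66.9, 69.7 and 65.0 CPM in WT (-0.54, SE 0.06, edgeR adjusted p 5.7e-06). Dhrs3, which reduces retinal, had -0.38 (SE 0.08), and both were kept in all 6 fits. That list had 2 calls without LacZ replicate 2, WT replicate 1 or WT replicate 2.

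**Figure D5:**
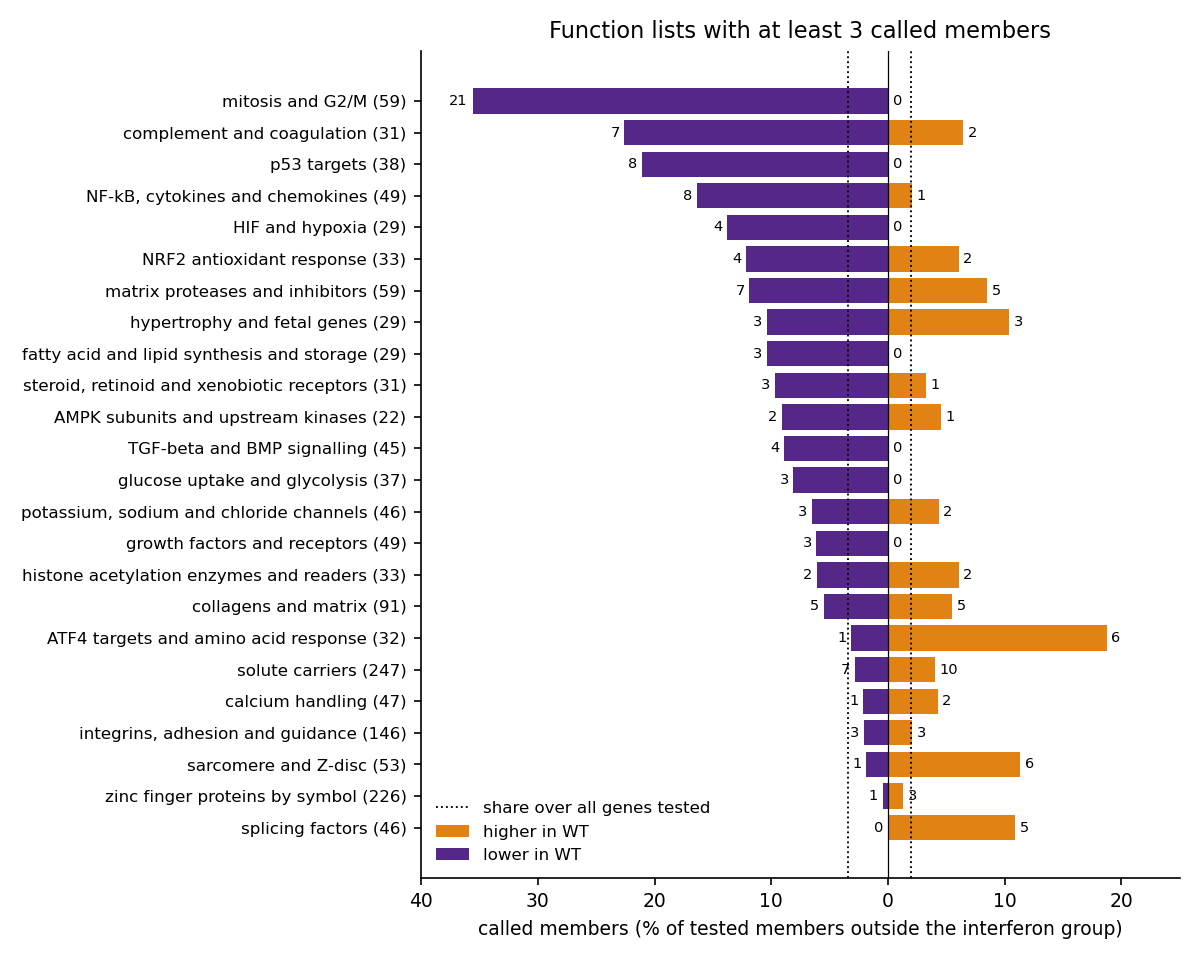
Percent of tested members called lower (left, purple) and higher (right, orange) in WT for function lists with at least 3 called members (1 such list is left out), with the number called at each bar and the number tested in brackets. Dotted lines mark the shares over all genes, 3.39% lower and 1.95% higher; the mitosis list reaches furthest on the lower side and the ATF4 list on the higher side.

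Among the 443 called genes in no list, a few are given after their values were seen. Pik3ip1, an inhibitor of PI3-kinase, stood at 63.3, 59.3 and 55.1 CPM in LacZ and at 80.3, 86.6 and 84.7 CPM in WT (0.50, SE 0.05, edgeR adjusted p 5.7e-06). Peg3, an imprinted zinc finger gene, stood at 44.2, 47.0 and 49.7 CPM in LacZ and at 69.6, 61.2 and 64.8 CPM in WT (0.47, SE 0.06, edgeR adjusted p 5.7e-05). Olr1, the receptor of oxidised LDL, stood at 22.5, 21.2 and 24.1 CPM in LacZ and at 14.0, 14.1 and 13.8 CPM in WT (-0.70, SE 0.10, edgeR adjusted p 9.5e-05). Resf1, a regulator of retroelement silencing, stood at 65.1, 80.1 and 76.4 CPM in LacZ and at 51.2, 43.6 and 43.0 CPM in WT (-0.69, SE 0.08, edgeR adjusted p 6.6e-05). All 4 kept their calls in all 6 fits.

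Markers of other cell types moved beside these genes, and their part in the results was not tested. Macrophage and leukocyte markers summed to 147 to 182 CPM in LacZ and to 185 to 197 CPM in WT. Of 24 tested, 3 rose and 1 fell, the median was 0.21, and 20 values were positive. Laptm5 and Cd53, both leukocyte membrane proteins, had 0.47 (edgeR adjusted p 0.0079) and 0.55 (edgeR adjusted p 0.027), and Lyz2, lysozyme, 0.33 (edgeR adjusted p 0.017); these calls were lost in 2, 4 and 4 of the 6 fits, each time also without LacZ replicate 2 (0.0675, 0.152 and 0.136). The gene that fell was Fcgr3a, given above. Without LacZ replicate 2 or WT replicate 2 the macrophage list had 1 called gene, and without LacZ replicate 3 it had 2. LacZ replicate 2 held the lowest summed level. Mmp12, Ptpn7 and, named after their values were seen, Gpnmb (0.44), Pf4 (0.45) and Syk (0.46) are macrophage or blood cell genes that also rose. Gpnmb, Pf4 and Syk were picked from genes that rose, so they add nothing to the count of the list. Such genes did not all rise: Tmem106a, the macrophage membrane protein given above, fell, as did Fcgr3a. Syk was lost in 5 of the 6 fits.

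Erythroid markers summed to 22.0 to 33.5 CPM in LacZ and to 12.7 to 16.2 CPM in WT, and the list includes the globins above. Of 6 tested, 3 fell (the globin entries) and 1 rose (Klf1, an erythroid factor, 1.15, kept in 1 of the 6 fits). Without WT replicate 2 the erythroid list had 1 call and without LacZ replicate 2 it had 2. Fibroblast markers overlapped between groups in sum, with 2 of 14 higher and 1 lower: Postn and Dpt (0.31) rose and Pdgfra, a receptor of fibroblasts, fell from 61.5, 62.6 and 59.6 CPM to 47.7, 47.1 and 48.1 CPM (-0.36, SE 0.06, edgeR adjusted p 0.0011). Endothelial markers were called in 0 of 14 genes by edgeR and by DESeq2 (2 at an unadjusted edgeR p under 0.05, and 1 call without LacZ replicate 3), and summed to 410 to 458 CPM in LacZ and to 397 to 464 CPM in WT, with 2 markers at 0 counts in all 6 libraries. Smooth muscle, epicardial and Schwann markers overlapped between the groups in summed level.

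The WT group was also set against the mutants for the 149 named genes. These comparisons share the WT libraries with the comparison that named the genes, so the counts are a description. Over all genes tested, 2.2% differed between WT and K815R and 1.07% between WT and the libraries labelled K815Q. Of the named genes, 46 differed from K815R and 23 from the libraries labelled K815Q. In the latter Kat6a stood at 43.4, 49.97 and 45.7 CPM, a difference from LacZ of -0.05 (edgeR adjusted p 0.82), which goes against their label. The 6 named interferon genes differed from neither, with edgeR adjusted p of at least 0.36.

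In the following values the first is WT over K815R and the second WT over the libraries labelled K815Q, on the log2 scale. Nqo1 was higher in WT by 0.76 (edgeR adjusted p 2.0e-05) and 0.66 (edgeR adjusted p 1.0e-04). Cyp1b1 was lower in WT, at -0.51 (edgeR adjusted p 7.6e-05) and -0.76 (edgeR adjusted p 1.1e-07). Fst was lower, at -0.67 (edgeR adjusted p 0.0011) and -0.65 (edgeR adjusted p 0.0025), and Olr1, named after its values were seen, at -0.58 (edgeR adjusted p 0.0023) and -0.76 (edgeR adjusted p 1.6e-04). Myh7b was higher by 0.38 (edgeR adjusted p 1.9e-04) and 0.23 (edgeR adjusted p 0.028). In these 5 genes WT was therefore called against each of the 3 other groups, in 1 direction per gene.

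Other genes differed from K815R and were not called against the libraries labelled K815Q. Rbfox1 was higher in WT than in K815R by 1.01 (edgeR adjusted p 0.0059) and Cilp by 0.74 (edgeR adjusted p 9.4e-05). Osmr was lower, at -0.46 (edgeR adjusted p 6.0e-04), as was Nppb, at -0.45 (edgeR adjusted p 6.0e-04). Whether WT's differences from the 2 mutant groups differ from each other was not tested. Ptx3 was lower than in K815R (-0.80, edgeR adjusted p 0.0059) and, near the threshold, than in the libraries labelled K815Q (-0.60, edgeR adjusted p 0.0498). Prkaa2 was higher in WT than in K815R by 2.57 (edgeR adjusted p 1.8e-04) and lower than in the libraries labelled K815Q (-1.17, edgeR adjusted p 0.011). The mitosis genes named above, Ckap2l, Prc1, Ckap2 and Ect2, differed from neither group, with log2 differences between -0.12 and 0.15.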

How the data were processed

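The authors deposited a table of raw read counts per gene for 12 poly(A) libraries, 3 per group, with 32883 gene rows, of which WT and LacZ (6 libraries) are compared here. Per the submitters' processing notes, Trimmomatic 0.39, HISAT2 2.2.1, HTSeq 0.6.1 and edgeR were used, with build Rnor_6.0; the strand setting and annotation are not given in the sources used here, so overlapping and antisense genes are uncertain. Of the reads in the table, 11.7% to 12.9% lay in no feature and 25.6% to 26.9% aligned to several places; these lines were left out. Groups and replicate numbers come from the sample titles.

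Counts were scaled by TMM, filtered by filterByExpr (minimum count 10, minimum total 15) and fitted with edgeR 4.0.16 (R 4.3.3; robust quasi-likelihood test, 1 model of group means over 12 libraries, all 4 groups sharing the estimate of spread). Adjusted p is Benjamini-Hochberg over 14063 genes and calls are at 0.05. CPM are TMM-scaled, log2 fold changes are WT over LacZ, and unnamed numbers beside a gene are log2 fold changes. Named genes were, among called genes of at least 5 CPM with a symbol and no overlap, the 6 interferon and the 12 higher and 12 lower remaining genes with the largest log2 fold change, the 4 largest per function list with at least 3 calls (overlap allowed), and a panel. The members and the 67 lists were chosen with earlier results of these data known. Lists are described by counts and medians, without a list test. Promoters are from RefSeq, matched by symbol.

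No pair of replicates agreed within sampling noise. On simulated WT against LacZ data with 13951 genes tested, 93 of 98 genes changed 2-fold and 98 of 102 changed 4-fold were called, with 8 false calls. The simulation gave genes of like level the same spread and held no smaller changes. It therefore does not show how well changes under 1.5-fold, which most remaining calls are, would be found. Alternatives tried were DESeq2 1.42.0, scaling by RLE or by upper quartiles, leaving out the filter or requiring 10 counts in every library, a replicate block, the 6 libraries alone, a 2-fold minimum, other interferon lists, a shorter motif, and each library left out. Some items are not reported here.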

Additional observations from a re-analysis of the deposited data

How the results depend on the processing

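Leaving out each library in turn gave 378 to 639 called genes in all, 88 to 106 in the interferon group and 284 to 535 in the remainder, with 109 to 231 higher and 175 to 304 lower. The cause was not tested. A 2-fold minimum left 102 called genes, 56 in the interferon group and 46 in the remainder, 14 higher and 32 lower, by its own construction. The shorter response element core was found in 7.53% of all genes against 3.06%, since fewer letters must match. Between 670 (DESeq2, and the 6 libraries alone) and 1018 genes (no filter, 22491 tested) were called under the other scalings, filters and tools. The interferon group held 81 (6 libraries alone) to 119 (no filter) of these.

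No pairing by replicate number was seen in the values: the deviations of same-numbered WT and LacZ libraries correlated across genes at -0.127, -0.0665 and -0.0211. Such correlations, from 3 libraries a group, cannot show whether the libraries were prepared as pairs, which no label states. With a replicate block 800 genes were called, 111 in the interferon group and 689 in the remainder.

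With 3 libraries a group, genes near the threshold depend on single libraries, and most remaining changes are under 1.5-fold. Low genes are limited by depth. No batch is given in the labels used here, and no virus dose, so a difference in dose between groups cannot be told apart from the cargo.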
